A study of Homo sapiens with 16 samples.

Results

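The comparison described here sets a pair of SKMEL28 clones that carry the same genotype label against each other. SKMEL28 is an established human melanoma line. Clones 3 and 13 are both labelled MITFKO, TFE3KO: TFE3 was edited with CRISPR-Cas9 in D2, an SKMEL28 line in which MITF had already been knocked out, so both clones and their parent carry the MITF edit. The libraries were chosen by their titles alone, 3 of clone 3 and 3 of clone 13, which makes 6 of the 16 RNA-seq libraries of the series. Levels in the 3 MITFKO libraries of the parent and in 1 wild-type SKMEL28 library are given for reference, and the A375 libraries are not used. Cells grew in RPMI with serum, each replicate came from its own flask, and the medium was replaced 24 h before harvest. Each clone is 1 line, so the p-values measure the spread between flasks of a clone and not the spread between clones, and a difference between the clones cannot be told apart from an effect of the edits that each carries.

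MITF, TFE3, TFEB and TFEC form the MiT/TFE family of basic helix-loop-helix leucine zipper transcription factors, which bind E-box DNA motifs as homodimers or as dimers with each other. MITF is the lineage factor of melanocytes and drives pigment genes, while TFE3 and TFEB are held in the cytoplasm by mTORC1 and the Rag GTPases when nutrients are plentiful and otherwise enter the nucleus, where they activate lysosomal and autophagy genes of the CLEAR network. Melanoma cells move between a differentiated, pigmented state with high MITF activity and a dedifferentiated, invasive state rich in matrix and adhesion genes.

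Total counts ran from 17320855 to 18228164 in clone 3 and from 18788189 to 23048354 in clone 13. The median gene differed by 0.120 to 0.151 (absolute log2) between libraries of clone 3, by 0.126 to 0.210 between libraries of clone 13, and by 0.226 to 0.327 between the clones. Replicate 2 of clone 13 stood apart from its own group: its 2 distances within clone 13 were 0.210 and 0.200, and its 10 most abundant genes held 8.56% of counts, against 7.45% and 7.41% in the other clone 13 libraries and 5.75% to 6.05% in clone 3. Levels below are CPM, counts scaled to library size after trimmed-mean (TMM) scaling, and a mean is given ± the SD over 3 libraries. Melanocyte lineage markers were present in both clones, with SOX10 at 937 against 948 CPM (clone 3 against clone 13), PMEL at 3372 against 4338 CPM, DCT at 212 against 221 CPM and TYR at 254 against 296 CPM. MLANA, at 718 CPM in wild type, was at 3.29 and 0.901 CPM in the clones, and TYRP1 was below 1 CPM in every SKMEL28 library. The leukocyte marker PTPRC, the endothelial marker PECAM1, the fibroblast collagens COL1A1 and COL1A2 and the basal keratin KRT5 had mean levels below 1 CPM in both clones.

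TFE3, the gene edited in both clones, had different transcript levels in them. In clone 3 its libraries held 8.13, 8.54 and 11.4 CPM, and in clone 13 they held 42.5, 46.8 and 47.9 CPM. The lowest clone 13 library was therefore above the highest clone 3 library. The means were 9.37 ± 1.805 and 45.7 ± 2.88 CPM (SD, n = 3), a 4.89-fold difference (log2 difference 2.29 ± 0.11 (SE), adjusted p = 2.53e-12, edgeR quasi-likelihood test with Benjamini-Hochberg adjustment over all genes tested). The MITFKO parent had 73.4 ± 3.72 CPM and wild type 43.7, so TFE3 was -2.97 on the log2 scale relative to MITFKO in clone 3 (adjusted p = 1.92e-14) and -0.68 in clone 13 (adjusted p = 4.15e-06). Edited alleles may still be transcribed and counted, and neither protein nor the edited sequence was measured in these files, so the counts do not check the knockout label. MITF was at 811, 778 and 753 CPM in clone 3 and 840.0, 944 and 827 CPM in clone 13. Its libraries did not overlap, but the difference of 0.16 on the log2 scale did not pass the test (adjusted p = 0.0592), and it did pass without replicate 1 or replicate 3 of clone 13 (adjusted p = 0.0439 and 0.0329). TFEB stood at 1.31 ± 0.112 and 1.37 ± 0.222 CPM (adjusted p = 0.93), and TFEC had at most 0.0561 CPM in any library of the clones and was not tested.

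Genes with an adjusted p below 0.05 are referred to as called, and 27.6% of the 14605 genes tested were called between the clones (4036 genes). Of these, 2084 were higher in clone 13 (14.3% of genes tested) and 1952 were lower (13.4%). Most differences were small: the median absolute log2 difference of called genes was 0.42, and 455 of them differed at least 2-fold, 235 higher and 220 lower in clone 13. A total of 149 called genes differed more than 4-fold, 61 higher and 88 lower. Most of these 149 had less than 5 CPM in the higher clone or libraries that overlapped between the clones. Among called genes with at least 5 CPM and no overlap, the 15 largest upward log2 differences ended at 1.70 (TMEM255B). The 15 largest downward ones ended at -1.81 (CRYAB). The 3 libraries of each clone did not overlap for 3869 of the called genes, while 39.0% of all genes tested had no overlap. A lack of overlap, given below for single called genes, therefore describes them and adds little to their calls. The median over all genes tested was -0.0036.

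Among genes with at least 5 CPM in the higher clone, C4orf3 differed most in the upward direction. C4orf3 encodes a small membrane peptide of the regulin family that inhibits the SERCA calcium pump. Its level was 1.74, 1.44 and 2.13 CPM in clone 3 and 23.4, 32.6 and 20.6 CPM in clone 13, with no overlap (log2 difference 3.85 ± 0.21 (SE), adjusted p = 1.66e-10). Clone 13 stood above the MITFKO parent, which had 13.2 ± 1.97 CPM, and clone 3 stood below it; wild type had 52.4. The gene next to it in chromosome order, USP53, had 233 and 208 CPM in clones 3 and 13 and was not called (adjusted p = 0.0514).

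The growth factor gene FGF1 was likewise below the parent in clone 3 and above it in clone 13. Clone 3 had 11.3, 9.76 and 11.7 CPM, clone 13 had 50.2, 38.4 and 48.5 CPM, and the MITFKO mean was 20.1 ± 0.916 CPM (log2 difference 2.07 ± 0.12 (SE), adjusted p = 4.85e-11). COL5A1, a fibrillar collagen chain, followed another order, with 0.199 CPM in wild type, 4.302 ± 0.177 in MITFKO, 11.3 ± 0.552 in clone 3 and 39.7 ± 3.92 in clone 13 (log2 difference 1.82 ± 0.12 (SE), adjusted p = 2.03e-10). EPHB1, an ephrin receptor, was at 3.44 ± 0.821 and 12.4 ± 2.23 CPM (adjusted p = 5.59e-07). BIRC7, which encodes the apoptosis inhibitor livin, was at 18.3 ± 4.98 and 65.4 ± 24.1 CPM (adjusted p = 0.00503), and FAM20C, a kinase of secreted proteins, at 39.9 ± 4.89 and 135 ± 38.6 CPM (adjusted p = 0.00056). In each of these genes the highest clone 3 library lay below the lowest clone 13 library, as the rule that named them required. TMEM255B and FGFBP2 also belong to this group, with log2 differences of 1.70 and 1.76, as does RAB11B-AS1 (1.71), an antisense gene whose reads cannot be told from those of RAB11B because the strand setting of the count is not given in the sources used here. RAB11B-AS1 lies in a run of neighbouring genes on chromosome 19 that was higher in clone 13, described further on.

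NPTX1, CA9, SLAMF9, NDRG1 and KANK3 were also among the largest upward differences, with replicate 2 as the highest library of clone 13 in each. NDRG1, a stress and hypoxia-responsive gene, had 483, 1109.6 and 494 CPM in clone 13 and 160.1, 254 and 153 in clone 3. CA9, the hypoxia-induced carbonic anhydrase IX, had 19.04, 46.5 and 15.5 CPM in clone 13 and 5.61, 9.54 and 3.56 in clone 3. NPTX1, a neuronal pentraxin, reached 31.3, 104 and 33.99 CPM and SLAMF9, a SLAM family receptor, 55.7, 170.2 and 55.5 CPM in clone 13. KANK3, which encodes an ankyrin repeat protein and lies in the same chromosome 19 run as RAB11B-AS1, had 2.41, 3.27 and 2.24 CPM in clone 3 and 5.75, 16.8 and 5.32 CPM in clone 13 (log2 difference 1.81, adjusted p = 0.00727). That the clones did not overlap in these genes was a condition of the rule that named them. For NPTX1, CA9, SLAMF9 and NDRG1 in this order, the log2 differences were 2.15 (adjusted p = 0.0287), 2.11 (0.0279), 2.11 (0.04) and 1.88 (0.0146). Without replicate 2 of clone 13 the log2 differences were 1.36, 1.47, 1.36 and 1.37, and 1.07 for KANK3. None of the 4 was called when the 6 libraries of both clones were fitted alone (adjusted p = 0.0806, 0.0771, 0.105 and 0.054), without replicate 1 of clone 3 (adjusted p = 0.1, 0.0941, 0.126 and 0.059) or without replicate 3 of clone 3 (0.0939, 0.0779, 0.126 and 0.0585). Their log2 differences in these 3 fits were 1.75 to 2.15. NPTX1 also lost its call without replicate 2 of clone 3 (adjusted p = 0.0639), and SLAMF9 lost its call without replicate 2 of clone 13, where its log2 difference was 1.36 (adjusted p = 0.0504), and with no filter on low counts (0.0563).

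**Figure D1:**
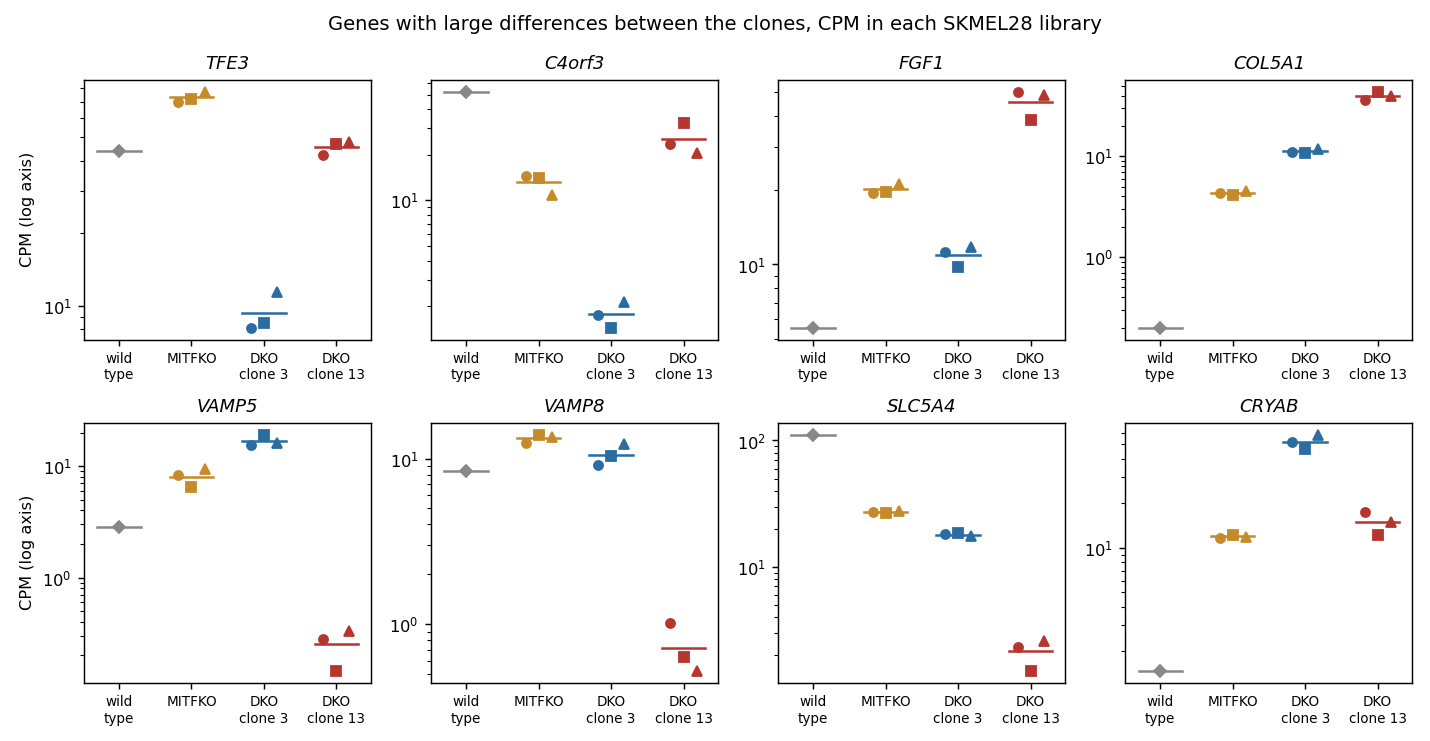
Level of 8 genes in each SKMEL28 library, in CPM on a log axis that differs between panels; circles, squares and triangles are replicates 1, 2 and 3, the diamond is the wild-type library and the bar is the group mean. The upper row shows genes higher in clone 13 and the lower row genes lower in clone 13. The 3 libraries of clone 3 and the 3 of clone 13 overlap in none of the 8, as the rule for naming the largest differences required.

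In the downward direction the largest difference was in VAMP5, followed by its neighbour VAMP8. Both encode R-SNARE proteins of vesicle fusion: VAMP8 acts in late endosome and autophagosome fusion with lysosomes and in regulated secretion, and VAMP5 was described in muscle. VAMP5 had 15.5, 19.1 and 15.98 CPM in clone 3 and 0.282, 0.145 and 0.332 CPM in clone 13, which came from 900 counts summed over 3 libraries against 15. VAMP8 had 9.08, 10.3 and 12.2 CPM in clone 3 and 1.01, 0.6297 and 0.522 CPM in clone 13. All 6 values of clone 13 were at most 1.01 CPM, and the MITFKO parent had 8.06 ± 1.45 CPM of VAMP5 and 13.3 ± 0.797 CPM of VAMP8. The differences were -6.03 ± 0.28 (adjusted p = 2.12e-12) and -3.88 ± 0.23 (adjusted p = 7.03e-11) on the log2 scale (SE). The genes on either side of this pair on chromosome 2 were not called: GGCX was at 124 against 126 CPM (adjusted p = 0.86), MAT2A at 211 against 196 CPM (0.162) and RNF181 at 70.5 against 77.3 CPM (0.179).

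The promoter windows of both genes are shown because this pair of adjacent transcripts was close to absent from clone 13 while the flanking genes were not. Each window runs from 250 bases before to 50 bases after the RefSeq start on the plus strand of GRCh38.p14 (chr2:85577336-85577635 for VAMP8 and chr2:85584181-85584480 for VAMP5), and capitals mark CG dinucleotides.
VAMP8: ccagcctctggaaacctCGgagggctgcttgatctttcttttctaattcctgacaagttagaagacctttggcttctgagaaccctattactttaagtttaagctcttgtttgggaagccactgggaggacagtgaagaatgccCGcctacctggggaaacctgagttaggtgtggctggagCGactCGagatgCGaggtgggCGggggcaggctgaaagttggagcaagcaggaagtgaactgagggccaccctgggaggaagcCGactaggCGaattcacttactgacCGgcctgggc
VAMP5: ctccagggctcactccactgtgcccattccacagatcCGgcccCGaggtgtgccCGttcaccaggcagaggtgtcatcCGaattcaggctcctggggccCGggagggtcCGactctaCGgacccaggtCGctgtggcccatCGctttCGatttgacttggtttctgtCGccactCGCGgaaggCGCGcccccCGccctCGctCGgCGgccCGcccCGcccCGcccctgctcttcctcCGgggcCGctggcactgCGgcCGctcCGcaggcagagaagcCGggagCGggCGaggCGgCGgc
The VAMP8 window holds 9 CG dinucleotides with 54.3% G and C, and the VAMP5 window holds 32 with 71.7%, where the median window of the genes tested holds 26. Neither window holds the E-box letters CACGTG. DNA methylation was not measured in the files used here.

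The other genes with the largest downward differences encode transporters, receptors and stress proteins. SLC5A4, a glucose-sensing member of the sodium-glucose transporter family, had 18.1, 18.4 and 17.6 CPM in clone 3 and 2.31, 1.502 and 2.61 in clone 13 (log2 difference -3.07 ± 0.15 (SE), adjusted p = 2.53e-12), with 27.1 ± 0.611 in MITFKO and 111 in wild type. CRYAB, a small heat shock protein, had 52.4, 46.5 and 58.2 CPM in clone 3 and 17.6, 12.3 and 14.9 in clone 13 (log2 difference -1.81 ± 0.12 (SE), adjusted p = 3.29e-10). Here clone 13 was near the MITFKO level of 11.96 ± 0.302 CPM and clone 3 was above it. TCN1, a vitamin B12 binding protein, was at 38.2 ± 2.88 and 7.15 ± 1.18 CPM (adjusted p = 1.59e-11). The interferon-inducible SAMD9L was at 5.54 ± 0.154 and 0.911 ± 0.339 CPM, the interleukin-7 receptor IL7R at 10.1 ± 2.25 and 2.34 ± 0.639, and the sodium-calcium exchanger SLC8A1 at 7.36 ± 0.509 and 1.59 ± 0.542. The remaining members of this group, NCKAP5, HAPLN1, VGLL3, IL1RL1, SP140L, CHRNA6 and SORBS2, had log2 differences from -2.35 to -1.87, and none of the 15 overlapped between the clones, as the rule for naming them required.

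Neighbouring genes differed together over parts of 5 chromosomes. On chromosome 4, from PDS5A to LINC01060, the last tested gene, 212 of 383 tested genes were lower in clone 13 and 2 were higher, with a median log2 difference of -0.48. The 3 most abundant genes called in the direction of each of the longer runs show its size: ANXA5, which encodes a phospholipid-binding annexin, was at 1019 against 749 CPM in clones 3 and 13 (log2 -0.44), the lysosomal receptor gene SCARB2 at 593 against 465 CPM (-0.35) and the histone variant gene H2AZ1 at 424 against 259 CPM (-0.71). On chromosome 12, from CRADD to ZNF268, again the last tested gene, 165 of 261 genes were lower and 4 higher, with a median of -0.42. Here RPL6 was at 988 against 826 CPM, TXNRD1 at 1095 against 568 CPM and the focal adhesion gene PXN at 639 against 518 CPM.

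Clone 13 was higher over a run on chromosome 19. From PLPP2, the first tested gene, to MAU2, 251 of 412 genes were higher in clone 13 and 4 lower, with a median of 0.43. The elongation factor EEF2 was at 2622 against 4005 CPM (log2 0.61), the melanosomal MFSD12 at 2197 against 2679.7 CPM (0.29) and the chaperone CALR at 989 against 1449 CPM (0.55). Shorter runs were found on chromosome 18 (TUBB8B to ABHD3, 41 of 75 genes higher and 2 lower, median 0.40) and chromosome 2 (from EPB41L5 on, 32 of 52 genes lower and 2 higher, median -0.40). These 2 runs were not found with a wider running median or among genes with at least 5 CPM, whereas those on chromosomes 4, 12 and 19 were. Over all chromosomes the running median over 51 genes lay between -0.24 and 0.16 from its 5th to its 95th percentile, and a run was a stretch where it passed 0.4 in size.

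**Figure D2:**
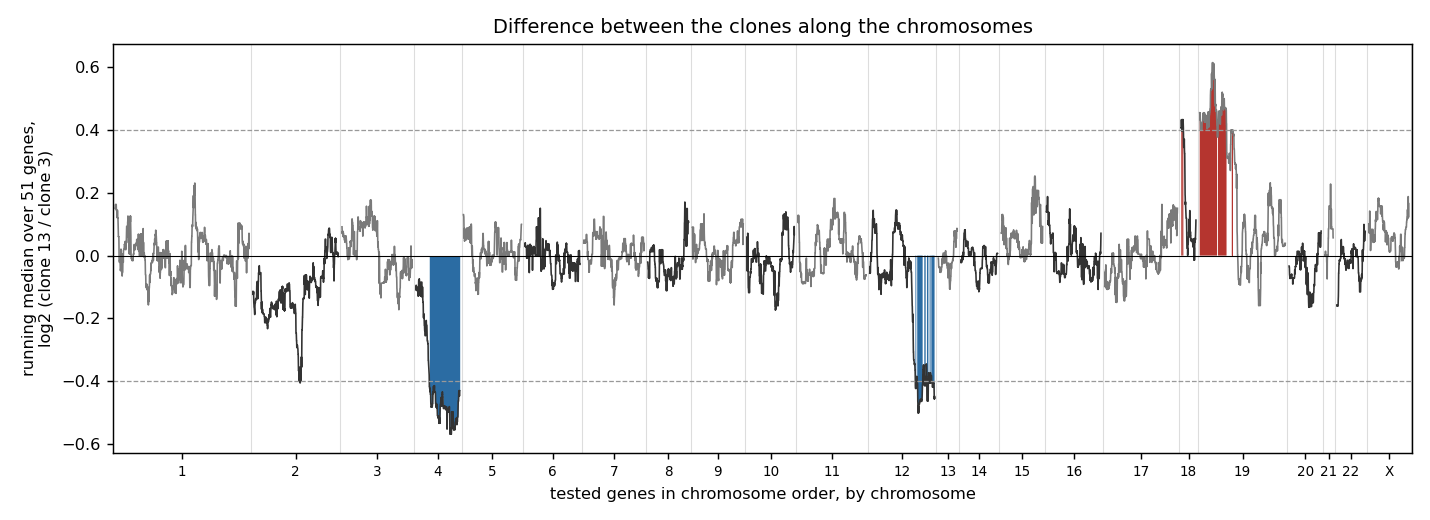
Running median of the log2 difference (clone 13 over clone 3) over 51 neighbouring tested genes, with chromosomes side by side and genes in order; dashed lines mark 0.4 and -0.4, red and blue fill stretches beyond them. Most of chromosome 4 and the end of chromosome 12 lie below the lower line, the start of chromosome 19 lies above the upper line, and chromosomes 2 and 18 only just reach them.

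The parent libraries show in which clone each run departed from MITFKO. On chromosome 4 the median gene of the run was at -0.0127, -0.0443 and -0.0294 relative to the MITFKO mean in the 3 libraries of clone 3 and at -0.41, -0.45 and -0.40 in those of clone 13 (log2 of CPM ratios). On chromosome 12 the values were 0.0588, 0.0036 and 0.0537 in clone 3 and -0.35, -0.37 and -0.32 in clone 13. On both chromosomes, then, clone 3 lay close to its parent and clone 13 below it, and the same held for the run on chromosome 2, with 0.0355, 0.0501 and 0.0855 against -0.33, -0.37 and -0.27. On chromosome 18 it was clone 3 that lay apart, at -0.38, -0.38 and -0.35, while clone 13 stood at 0.0326, -0.0310 and 0.0346. On chromosome 19 the clones lay on opposite sides of MITFKO, clone 3 at -0.26, -0.18 and -0.23 and clone 13 at 0.17, 0.24 and 0.19, and wild type was lower still at -0.50. The runs were chosen by the difference between these 6 libraries, so that the clones lie apart in them is a description. So is the called share: inside the runs 60.4% of 1183 genes were called, against 24.7% of the 13422 genes outside them, and 17.7% of all called genes lay inside. DNA copy number was not measured in the files used here.

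**Figure D3:**
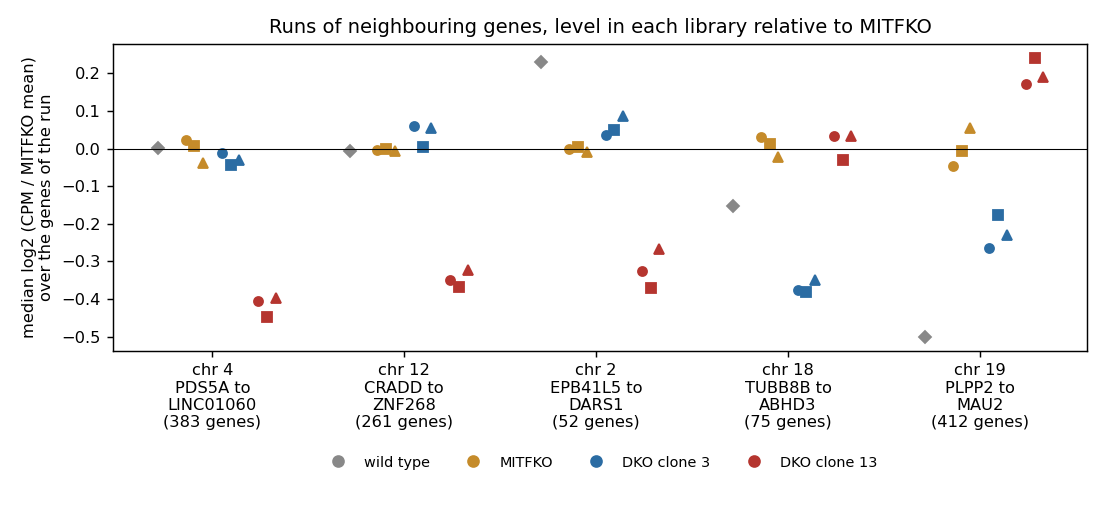
Median over the genes of each run of the log2 ratio of a library's CPM to the MITFKO mean, one point per library; circles, squares and triangles are replicates 1, 2 and 3 and the diamond is wild type. Clone 13 is the clone away from 0 on chromosomes 4, 12 and 2, clone 3 is on chromosome 18, and both are on chromosome 19 in opposite directions.

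Lysosomal genes of the CLEAR network, the best known targets of TFE3, differed in both directions: 18 of 48 tested members were higher in clone 13 and 12 lower, so that 62.5% were called beside 27.6% of all genes, and the median log2 difference was 0.08 (0.0109 without replicate 2 of clone 13). The lower count was 5 without replicate 1 or replicate 2 of clone 3 and 6 without replicate 1 or replicate 3 of clone 13. Many of the higher members were hydrolases and their activators (among them CTSA, CTSB, CTSD, CTSF, CTSZ, GAA, GALNS, GLB1, GUSB, IDS, PSAP, TPP1), with the channel gene MCOLN1 and the glycoprotein gene GPNMB. GAA, the acid glucosidase that degrades glycogen, was at 68.1, 83.4 and 70.999 CPM in clone 3 and 124, 161 and 126 in clone 13 (log2 difference 0.89 ± 0.097 (SE), adjusted p = 5.61e-06). The protease gene CTSB was at 1536, 1701 and 1497 CPM and 2393, 2853 and 2452 CPM (log2 difference 0.70 ± 0.067 (SE), adjusted p = 9.17e-08), and CTSF at 28.8 ± 2.402 and 46.9 ± 4.31 CPM (adjusted p = 1.36e-05). In all 3 genes every library of clone 13 was above every library of clone 3. The MITFKO means were 94.5 ± 3.34 CPM for GAA, 1973 ± 90.8 for CTSB and 23.4 ± 2.12 for CTSF. Of the 12 lower members, 6 encode subunits of the V-ATPase proton pump (ATP6V0D2, ATP6V1A, ATP6V1B2, ATP6V1C1, ATP6V1E1, ATP6V1H), and ATP6V0D2 was at 6.51 ± 0.442 and 3.77 ± 0.397 CPM (adjusted p = 0.00183). Among these 12, SCARB2 lies in the chromosome 4 run, and among the higher members MCOLN1 lies in the chromosome 19 run. Outside the runs 17 of 45 tested members were higher and 11 lower.

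TFE3 and MITF bind the E-box CACGTG, with TCACGTG as the form known from M-boxes and CLEAR elements. RefSeq promoter windows (GRCh38.p14, 250 bases before to 50 after the start) were searched on both strands, and every TCACGTG also counts as a CACGTG. A window was used for 15 of the 18 higher CLEAR members, and 6 of these held TCACGTG (CTSA, CTSD, CTSF, GAA, GALNS, MCOLN1). TCACGTG was found in 1 of 4 lower members whose window was used (CLCN7) and in 2 of 10 such members that were not called. These windows cover only 4 of the 12 lower and 10 of the 18 uncalled members. The shares of higher and lower members therefore cannot be compared. In the folliculin, Rag and mTORC1 sensing list described further on, TCACGTG was in the windows of 1 of 5 higher members (RRAGB), 0 of 7 lower members and 5 of 15 that were not called (FNIP1, RRAGC, LAMTOR1, LAMTOR4, TSC2). The windows of GAA, CTSF and CTSD, and of the Rag GTPase gene RRAGB, are shown as examples of higher genes that hold the motif, with every CACGTG and an adjoining T before or A after it in capitals. They lie at chr17:80101331-80101630 (plus strand), chr11:66568557-66568856 (minus strand), chr11:1763878-1764177 (minus strand) and chrX:55717499-55717798 (plus strand) and are written in the direction of transcription.
GAA: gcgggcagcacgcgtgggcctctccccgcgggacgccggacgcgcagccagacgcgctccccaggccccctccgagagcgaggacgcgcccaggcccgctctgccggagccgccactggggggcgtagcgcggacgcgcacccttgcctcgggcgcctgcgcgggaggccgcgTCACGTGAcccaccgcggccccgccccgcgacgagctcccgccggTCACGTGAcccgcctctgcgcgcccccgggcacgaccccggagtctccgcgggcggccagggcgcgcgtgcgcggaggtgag
CTSF: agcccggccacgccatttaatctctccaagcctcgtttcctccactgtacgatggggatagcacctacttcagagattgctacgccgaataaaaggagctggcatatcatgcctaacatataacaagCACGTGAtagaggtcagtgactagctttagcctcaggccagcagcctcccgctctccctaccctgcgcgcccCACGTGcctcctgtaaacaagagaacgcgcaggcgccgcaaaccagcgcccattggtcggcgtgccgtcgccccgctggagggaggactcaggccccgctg
CTSD: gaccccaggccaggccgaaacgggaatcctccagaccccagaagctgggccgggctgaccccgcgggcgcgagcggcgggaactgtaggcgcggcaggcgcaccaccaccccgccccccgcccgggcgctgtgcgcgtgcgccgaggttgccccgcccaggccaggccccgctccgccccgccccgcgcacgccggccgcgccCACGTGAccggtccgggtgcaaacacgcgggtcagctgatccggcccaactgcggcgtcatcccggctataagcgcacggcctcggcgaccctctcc
RRAGB: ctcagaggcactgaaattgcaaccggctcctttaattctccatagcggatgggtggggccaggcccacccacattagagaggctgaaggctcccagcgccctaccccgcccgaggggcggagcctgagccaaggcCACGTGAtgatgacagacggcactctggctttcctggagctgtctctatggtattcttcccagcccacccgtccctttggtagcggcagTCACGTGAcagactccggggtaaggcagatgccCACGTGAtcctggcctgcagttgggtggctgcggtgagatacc
Over all genes, TCACGTG was in the window of 5.81% of 1688 higher genes, 6.79% of 1605 lower genes and 5.64% of 8121 genes that were not called, against 3.82% of all 27305 windows. For CACGTG the shares were 10.2%, 11.5%, 9.75% and 7.43%.

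Of the autophagy genes 5 of 36 tested members were higher in clone 13 and 3 lower, 22.2% of the list beside 27.6% of all genes. ATG16L1, which places the lipidation machinery on membranes, was at 55.1 ± 1.16 and 45.5 ± 0.164 CPM (adjusted p = 0.00573). The higher count was 0 without replicate 3 of clone 3 and 2 without replicate 1 or replicate 2 of clone 3. Of the folliculin, Rag and mTORC1 sensing genes, 5 of 34 tested members were higher in clone 13 and 7 lower, 35.3% of the list. The higher count was 3 without replicate 1 of clone 3. RRAGB had 5.16, 6.27 and 6.55 CPM in clone 3 and 9.63, 7.702 and 10.2 in clone 13 (log2 0.61, adjusted p = 0.0145, but 0.0743 without replicate 1 of clone 3 and 0.0558 without replicate 3 of clone 13). The lower members included FLCN and FNIP2, which encode the folliculin complex, and the mTORC1 inhibitors DDIT4 and SESN2. DDIT4 had 469.6, 539.5 and 445 CPM in clone 3 and 246, 219 and 283 in clone 13, with no overlap (log2 difference -0.96 ± 0.094 (SE), adjusted p = 4.92e-06), and 630.2 ± 47.5 in MITFKO. SESN2 was at 30.7 ± 2.37 and 20.7 ± 1.58 CPM (adjusted p = 0.000119), and LAMTOR3, a Ragulator subunit gene in the chromosome 4 run, at 32.9 ± 1.28 and 21.8 ± 1.94 CPM (adjusted p = 0.000281).

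Melanocyte differentiation genes differed in both directions: 6 of 34 tested members were higher in clone 13 and 10 lower. This is 47.1% of the list, beside 27.6% of all genes. Genes of melanosome biology were among the higher ones. MLPH, the melanophilin of melanosome transport, had 13.3, 10.4 and 14.5 CPM in clone 3 and 40.1, 46.2 and 34.8 in clone 13 (log2 difference 1.66 ± 0.12 (SE), adjusted p = 1.06e-08), and GPR143, a melanosomal receptor, had 6.84, 6.99 and 5.69 and 18.9, 17.9 and 19.5 CPM (log2 difference 1.53 ± 0.11 (SE), adjusted p = 7.2e-10). In both genes the MITFKO mean (28.5 ± 2.61 and 43.3 ± 1.18 CPM) was above clone 3. TYR, the tyrosinase gene, was at 254 against 296 CPM (adjusted p = 0.00461). Lower members included QPCT, a glutaminyl cyclase, at 20.8 ± 0.487 and 7.28 ± 0.572 CPM (log2 difference -1.51 ± 0.096 (SE), adjusted p = 1.72e-10), the lipoprotein gene APOE at 61.6 ± 8.65 and 33.4 ± 3.59 CPM (adjusted p = 4.26e-06), and MLANA, with 4.04, 2.44 and 3.39 CPM in clone 3 and 1.75, 0.339 and 0.617 in clone 13 (log2 difference -1.93, adjusted p = 0.0115; -2.75 without replicate 1 of clone 13). PMEL was at 3372 ± 387 and 4338 ± 847 CPM and did not pass the test (adjusted p = 0.073), nor did SOX10 (0.862) or DCT (0.529).

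Markers of other cell types gave these values. Of the keratinocyte markers, 9 of 18 were tested and 3 were higher in clone 13 (KRT14, KRT16, DSP), with a summed level of 88.6 to 100.2 CPM in clone 3 and 117 to 148 in clone 13, while KRT5 had no count in any library of clone 13. Of the fibroblast markers, 5 of 12 were tested and 1 was lower (LUM; 2 without replicate 2 of clone 13), with sums of 100.1 to 108 and 74.7 to 87.1 CPM. Of the leukocyte and endothelium markers, 5 of 18 were tested and 1 was lower (CD68), with sums of 237 to 272 and 169 to 236 CPM, and PTPRC had no count in any library of clone 13. CD68 had 244 ± 19.2 and 194 ± 34.8 CPM and lost its call with the 6 libraries of both clones alone (adjusted p = 0.0604) and in 4 of the 6 fits that left out a library, all except those without replicate 2 of clone 13 and replicate 3 of clone 3 (adjusted p from 0.052 to 0.0924). The libraries are bulk RNA from clones of 1 melanoma line, so these transcript levels are not counts of other cell types. Which cells held the transcripts was not measured.

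On the lists of extracellular matrix genes, matrix receptors and the invasive melanoma state, more members were called higher than lower in clone 13. With all libraries fitted, in none of these lists was a majority called higher. Among collagens 11 of 29 tested members were higher in clone 13 and 1 lower (median 0.25, from 0.16 without replicate 2 to 0.38 without replicate 1 of clone 13; 2 were lower without replicate 2 of clone 13), and among laminin and basement membrane genes 7 of 17 tested members were higher in clone 13 and 0 lower (median 0.30, and 0.14 without replicate 3 of clone 13). For matricellular proteins, proteoglycans and elastic fibres 13 of 32 tested members were higher in clone 13 and 6 lower, a higher count that was 8 without replicate 3 of clone 3. FN1, fibronectin, was among the most abundant transcripts, with 6071, 5867 and 5992 CPM in clone 3 and 11942, 13388 and 11995 in clone 13. The clones did not overlap (log2 difference 1.06 ± 0.056 (SE), adjusted p = 1.59e-11), and MITFKO had 5596 ± 96.3 CPM. LAMB3, a laminin-332 chain, was at 48.6 ± 5.69 and 109 ± 11.95 CPM (log2 difference 1.16 ± 0.089 (SE), adjusted p = 3.47e-09), the proteoglycan gene ACAN at 46.4 ± 6.49 and 103 ± 9.94 CPM (adjusted p = 5.02e-09), and SPARC at 8855 ± 424 and 11516 ± 1059 CPM (adjusted p = 9.25e-05). The collagen chains COL5A3, COL6A3 and COL13A1 had log2 differences of 1.67, 1.26 and 1.68; COL5A3 lies on chromosome 19 in the run described above. Lower members of these lists included HAPLN1 (log2 -2.06), which joins hyaluronan to proteoglycans, COL5A2 and SPP1. CCN2, a matricellular target of YAP, had 22.99, 20.4 and 24.1 CPM in clone 3 and 14.3, 9.98 and 18.6 CPM in clone 13 (log2 -0.65, adjusted p = 0.0259), and lost its call without replicate 1 of clone 13 (adjusted p = 0.0719), replicate 1 of clone 3 (0.0835) or replicate 3 of clone 3 (0.0888).

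Among integrin and focal adhesion genes 12 of 28 tested members were higher in clone 13 and 5 lower, and 3 were lower without replicate 1 of clone 3. The collagen receptor chain ITGA1 had 31.7, 36.3 and 30.8 CPM in clone 3 and 83.7, 98.8 and 87.4 in clone 13 (log2 difference 1.45 ± 0.085 (SE), adjusted p = 5.28e-11). ITGA2, another collagen receptor chain, was at 58.4 ± 0.612 and 115 ± 6.62 CPM, the laminin receptor chain ITGA3 at 223 ± 2.31 and 434 ± 47.4, and ITGB8, which with alpha V activates latent TGF-beta, at 94.5 ± 4.26 and 171 ± 16.2 (adjusted p = 4.99e-10, 8.68e-10 and 6.25e-09). None of these 4 overlapped between the clones, and in all 4 clone 3 was below the MITFKO mean and clone 13 above it (59.4 ± 2.59, 76.02 ± 3.49, 316 ± 20.03 and 119.6 ± 7.16 CPM in MITFKO). Of the metalloproteinase and plasminogen genes 13 of 28 tested members were higher in clone 13 and 4 lower. The higher count was 15, a majority, without replicate 1, 2 or 3 of clone 13. LOXL2, a matrix cross-linking oxidase, had 179, 207 and 191 CPM in clone 3 and 422, 683 and 412 in clone 13 (log2 difference 1.39 ± 0.20 (SE), adjusted p = 0.00271), and PLAUR, the urokinase receptor, 142 ± 8.14 and 240.3 ± 22.002 CPM (adjusted p = 1.41e-08). The collagenase gene MMP8 went the other way, with 357, 352 and 345 CPM in clone 3 and 185, 179 and 174 in clone 13 (log2 difference -0.97 ± 0.054 (SE), adjusted p = 2.84e-11).

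On the invasive state list 14 of 35 tested members were higher in clone 13 and 4 lower (median 0.25). The lower count was 2 without replicate 3 of clone 3 and 6 without replicate 2 of clone 13. FN1, SPARC, LOXL2, THBS1, CCN2, ITGA2 and ITGA3 are among the genes this list shares with the lists above. WNT5A, a ligand of noncanonical WNT signalling, had 70.1, 65.8 and 71.8 CPM in clone 3 and 117, 107 and 110.4 in clone 13 (log2 difference 0.68 ± 0.066 (SE), adjusted p = 7.87e-08), while its receptor gene ROR1 was lower, at 23.1 ± 0.6603 and 15.1 ± 1.69 CPM (adjusted p = 0.000526). VIM, vimentin, was at 4692 ± 117 and 6738 ± 419.6 CPM (adjusted p = 3.03e-07), and SNAI1, a repressor of E-cadherin, was lower at 29.9 ± 1.09 and 17.8 ± 3.72 CPM (adjusted p = 0.000117). Of 12 tested S100 calcium-binding proteins 7 were higher and 1, S100B, was lower; S100A1 was at 495 ± 9.74 and 774 ± 61.1 CPM and S100A6 at 287 ± 18.5 and 479 ± 64.6 CPM (adjusted p = 2.88e-08 and 1.85e-05).

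Glycolysis was the list with the largest called share. Of its genes 19 of 24 tested members were higher in clone 13 and 2 lower (median 0.50), from glucose uptake (SLC2A1) and hexokinase (HK1, HK2) to lactate dehydrogenase (LDHA) and lactate export (SLC16A1, SLC16A3). LDHA had 2656, 2834 and 2490.2 CPM in clone 3 and 4186, 4938 and 3999 in clone 13, with no overlap (log2 difference 0.72 ± 0.071 (SE), adjusted p = 2.34e-07). PGK1, phosphoglycerate kinase, had 907, 1122 and 889 and 1475, 2036 and 1469 CPM (log2 difference 0.77 ± 0.14 (SE), adjusted p = 0.00456), and MITFKO was lower than both, at 532 ± 10.8 CPM. The lower members were LDHB and PFKFB3, of which 1 was called without replicate 1 of clone 3. Of the hypoxia-induced genes 11 of 22 tested members were higher in clone 13 and 2 lower (median 0.46); the higher count was 5 without replicate 1 or replicate 3 of clone 3, and the lower count 1 without replicate 1 or 3 of clone 13 or replicate 2 of clone 3. PLOD2, a collagen lysyl hydroxylase on this list, was at 208 ± 18.6 and 383 ± 82.3 CPM (adjusted p = 0.00226). Oxygen use and lactate were not measured.

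All called members of the cell cycle and DNA replication lists were lower in clone 13. Of the cell cycle list 0 of 30 tested members were higher in clone 13 and 22 lower (median -0.40), and of the replication list 0 of 38 tested members were higher in clone 13 and 17 lower (median -0.30). The MITFKO parent also lay below clone 3. Relative to the clone 3 mean, its median cell cycle gene was at -0.44, -0.45 and -0.54, against -0.26, -0.66 and -0.29 in clone 13. Its median replication gene was at -0.42, -0.35 and -0.38, against -0.14, -0.55 and -0.195 in clone 13. The lower cell cycle count was 14 without replicate 1 or replicate 3 of clone 3, and 1 member was higher without replicate 2 of clone 13. CCNA2, cyclin A, had 65.04, 59.8 and 64.8 CPM in clone 3 and 44.3, 26.3 and 33.3 in clone 13 (log2 difference -0.87 ± 0.14 (SE), adjusted p = 0.00037), with 42.1 ± 1.41 in MITFKO and 86.1 in wild type. BIRC5, survivin, was at 131 ± 3.302 and 86.99 ± 9.72 CPM and AURKA, a mitotic kinase, at 172 ± 12.5 and 107 ± 20.3 CPM (adjusted p = 4e-06 and 0.00135). MCM6, a subunit of the replicative helicase, had 191, 178 and 197 and 124, 93.3 and 128 CPM (log2 difference -0.71 ± 0.094 (SE), adjusted p = 5.73e-05), and POLE, the catalytic subunit of polymerase epsilon, 57.2 ± 5.499 and 36.2 ± 2.92 CPM (adjusted p = 6.44e-06). The clones overlapped in none of these 5 genes, as was the case for 3869 of the 4036 called genes. Among G1 regulators CCND3 and CDK6 were lower (log2 -0.70 and -0.39) and the inhibitor genes CDKN2B and CDKN2D higher (0.68 and 0.46). CDKN2D lies in the chromosome 19 run, and outside the runs 1 of 15 tested G1 regulators was higher and 3 lower. CCNA2 lies in the chromosome 4 run, POLE in the chromosome 12 run and MCM6 in the chromosome 2 run, and outside the runs 20 of 27 cell cycle genes and 14 of 33 replication genes were still lower.

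Replicate 2 was the extreme library of both clones on these lists. Relative to the clone 3 mean, the median glycolysis gene was at 0.41, 0.71 and 0.38 in the 3 libraries of clone 13 and at -0.0383, 0.0951 and -0.0716 in those of clone 3 (log2). The median hypoxia-induced gene was at 0.31, 0.74 and 0.21 in clone 13 and -0.0926, 0.19 and -0.12 in clone 3. The median cell cycle gene was at -0.26, -0.66 and -0.29 in clone 13 and 0.0555, -0.0961 and 0.0374 in clone 3. In clone 13 replicate 2 therefore lay farthest from clone 3, and in clone 3 replicate 2 lay on the side of clone 13, although the clones did not overlap on any of the 3 lists. Without replicate 2 of both clones, 18 of 24 glycolysis genes and 15 of 22 hypoxia-induced genes were higher, and 23 of 30 cell cycle genes were lower with 1 higher. Without replicate 2 of clone 13 alone, the median was 0.25 for hypoxia-induced genes and was -0.17 for replication genes. Culture density and medium composition at harvest were not given, and their part in these differences was not tested.

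**Figure D4:**
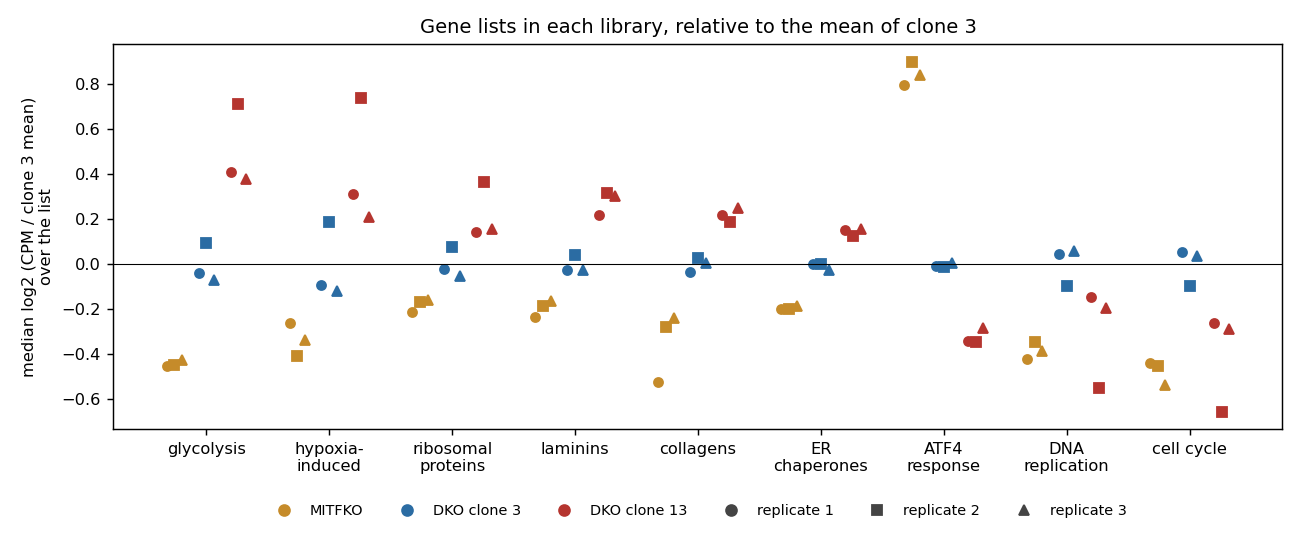
Median log2 ratio to the clone 3 mean over the genes of 9 lists, one point per library, for MITFKO and both clones; circles, squares and triangles are replicates 1, 2 and 3. The squares of clone 13 stand apart on the glycolysis, hypoxia, ribosomal, replication and cell cycle lists, while the 3 libraries lie close together on the collagen, ER chaperone and ATF4 lists.

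Genes of the ATF4 stress response, which covers amino acid transport, serine synthesis and one-carbon enzymes, were more often called lower than higher in clone 13: 1 of 28 tested members was higher in clone 13 and 14 lower (median -0.35). The 3 libraries of clone 13 were alike on this list, at -0.34, -0.35 and -0.28 relative to the clone 3 mean, and the MITFKO libraries were on the other side of clone 3, at 0.79, 0.90 and 0.84. ALDH1L2, a mitochondrial folate enzyme, had 23.05, 27.4 and 25.2 CPM in clone 3 and 12.2, 10.8 and 11.1 in clone 13 (log2 difference -1.16 ± 0.1 (SE), adjusted p = 1.63e-08), with 71.5 ± 3.71 in MITFKO. The cystine transporter gene SLC7A11 was at 252 ± 27.96 and 149 ± 24.2 CPM, ATF3 at 7.58 ± 0.355 and 4.12 ± 0.726, and the peptide hormone gene ADM2 at 11.6 ± 1.57 and 5.85 ± 1.15 (adjusted p = 0.000965, 0.000719 and 5.82e-05). The higher member was PPP1R15A. SLC7A11 lies in the chromosome 4 run and ALDH1L2 in the chromosome 12 run, and outside the runs 12 of 25 tested members were lower. ER chaperones and the unfolded protein response had called members in the opposite direction: 10 of 22 tested members were higher in clone 13 and 0 lower (1 lower without replicate 3 of clone 13). CALR was at 989 ± 40.6 and 1449 ± 72.5 CPM and PDIA3, a disulfide isomerase, at 642 ± 26.03 and 848 ± 81.2 CPM (adjusted p = 1.43e-07 and 3.76e-05). CALR lies in the chromosome 19 run, and outside the runs 9 of 20 tested members were higher and 0 lower. Of the NRF2 antioxidant targets 3 of 22 tested members were higher in clone 13 and 5 lower, 36.4% of the list beside 27.6% of all genes. The counts were 6 higher and 4 lower without replicate 2 of clone 13. TXNRD1, thioredoxin reductase, in the chromosome 12 run, had 1104, 1031 and 1149.8 CPM in clone 3 and 592, 492 and 619.8 in clone 13 (log2 difference -0.95 ± 0.07 (SE), adjusted p = 3.1e-09).

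Cytoplasmic ribosomal protein genes differed by small amounts: 30 of 38 tested members were higher in clone 13 and 1 lower (median 0.21), a higher count that was 16 without replicate 1 and 15 without replicate 3 of clone 3. RPS6 was at 594 ± 29.2 and 744 ± 75.9 CPM (adjusted p = 0.000575), and the lower member, RPL6, lies in the chromosome 12 run. Ribosomal protein genes have near-identical pseudogene copies, so these values are uncertain. Respiratory chain genes stayed near the background share, with 5 higher and 4 lower of 38; 3 were higher without replicate 1 or replicate 3 of clone 3, and 1 was lower without replicate 1 of clone 3. Of the cholesterol and fatty acid synthesis genes 1 of 33 was higher and 7 were lower, 4 of them outside the runs. This is 24.2% of the list, beside 27.6% of all genes. The higher count was 4, 2 and 3 without replicate 1, 2 and 3 of clone 13 in turn. Of 20 tested p53 targets 2 were called, both higher, which is 10.0% of the list and below the share of all genes. The counts were 1 higher and 2 lower without replicate 2 of clone 13, 1 higher without replicate 1 or 2 of clone 3, and 2 higher and 1 lower without replicate 1 of clone 13. None of 13 replication histone genes was called, and 1 was lower without replicate 1 of clone 13.

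**Figure D5:**
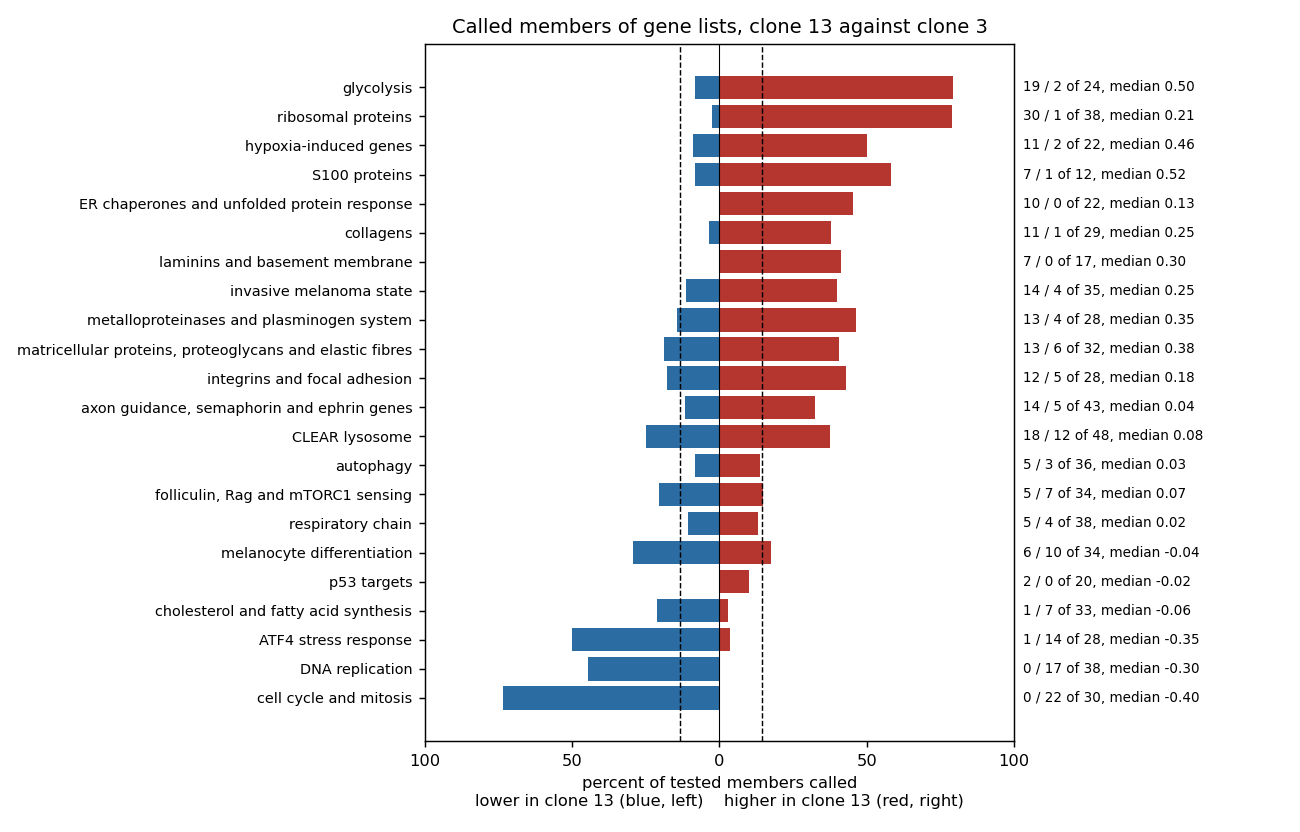
Percent of the tested members of 22 gene lists called higher (red, right) or lower (blue, left) in clone 13, with the numbers of higher and lower members, the members tested and the median log2 difference at the right. Dashed lines mark the share of all genes tested that was called higher (14.3%) or lower (13.4%). Glycolysis and ribosomal proteins reach farthest to the right, cell cycle and replication genes farthest to the left with the ATF4 response.

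Signalling genes differed member by member, and their counts are to be read beside the 27.6% of all genes tested that were called. Of secreted cytokines and growth factors 6 of 39 tested members were higher in clone 13 and 9 lower (38.5% called), and 11 of the 39 lie inside the runs. Beside FGF1, the insulin-like growth factor binding protein IGFBP5 was higher, at 11.5 ± 1.69 and 24.9 ± 3.13 CPM (adjusted p = 3.63e-06), and the chemokine gene CXCL1, inside the chromosome 4 run, was lower at 12.6 ± 1.84 and 4.47 ± 1.37 CPM (adjusted p = 0.000149). Of growth factor receptors 2 of 24 tested members were higher in clone 13 and 5 lower, 29.2% of the list and near the share of all genes. MERTK, a receptor for apoptotic cell ligands, was at 16.2 ± 1.51 and 6.13 ± 1.14 CPM (log2 -1.40), and the insulin receptor INSR at 18.8 ± 0.565 and 29.6 ± 3.61 (log2 0.65). INSR lies in the chromosome 19 run, and outside the runs 1 of 22 tested receptors was higher and 5 lower. Among axon guidance, semaphorin and ephrin genes 14 of 43 tested members were higher in clone 13 and 5 lower, and 8 were lower without replicate 2 of clone 13. The secreted guidance factor SLIT3 was higher at 59.5 ± 2.45 and 128 ± 1.94 CPM, as was its receptor gene ROBO2 at 2.24 ± 0.9698 and 6.103 ± 0.317 (log2 1.11 and 1.45), and netrin-4, NTN4, inside the chromosome 12 run, was lower at 9.27 ± 1.77 and 3.59 ± 0.686 CPM (log2 -1.37).

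On the MAPK output list 6 of 19 tested members were higher in clone 13 and 4 lower: the feedback phosphatase gene DUSP4 was at 782 ± 17.2 and 933 ± 8.22 CPM (adjusted p = 0.000614) and the feedback inhibitor SPRY1, inside the chromosome 4 run, at 43.7 ± 8.08 and 26.2 ± 2.27 CPM (adjusted p = 3.59e-05). On the TGF-beta, BMP and YAP list 7 of 27 tested members were higher in clone 13 and 6 lower, and 4 were higher without replicate 3 of clone 3. The TGF-beta target PMEPA1 was higher (190.1 ± 11.5 and 285 ± 38.5 CPM, log2 0.58) and the YAP targets AMOTL2 and CCN2 lower; AMOTL2 had 14.2, 15.1 and 20.01 CPM in clone 3 and 4.45, 4.02 and 5.55 in clone 13 (log2 difference -1.81 ± 0.16 (SE), adjusted p = 3.37e-08). CCN2 lost its call in 3 of the fits that left out a library, as given above. WNT pathway genes gave equal counts, 6 higher and 6 lower of 33: the receptor gene FZD8 was at 46.3 ± 1.19 and 89.7 ± 10.2 CPM and the inhibitor gene DKK1 at 22.03 ± 5.28 and 11.4 ± 1.85 (log2 0.95 and -0.95). Among neural crest genes the homeobox genes DLX1, DLX2 and DLX5 were lower and L1CAM higher; DLX2 was at 47.6 ± 2.702 and 21.2 ± 4.54 CPM (adjusted p = 2.64e-07) and the adhesion molecule L1CAM at 318 ± 16.95 and 606 ± 67.9 CPM (adjusted p = 1.3e-09). DLX5 (log2 -0.73) lost its call without replicate 1 of clone 3 (adjusted p = 0.0631).

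Of 30 tested genes of class I antigen presentation and the interferon response, 5 were higher in clone 13 and 4 lower. This is 30.0% of the list, near the 27.6% of all genes that were called. HLA-B, HLA-F and B2M were among the higher members and IFIT2, OAS1, OAS3 and IFI44 the lower ones. OAS1, inside the chromosome 12 run, was at 15.3 ± 1.74 CPM in clone 3 and 9.44 ± 0.484 in clone 13 (adjusted p = 0.000372). HLA-B was at 238 ± 34.4 and 406 ± 115 CPM (adjusted p = 0.035), and lost its call with the 6 libraries of both clones alone (adjusted p = 0.0686) and without replicate 1 or replicate 3 of clone 3 (adjusted p = 0.103 and 0.104). Reads of HLA genes can be split between near-identical copies. Among imprinted genes PLAGL1 was higher, at 11.02 ± 1.42 and 20.9 ± 1.74 CPM (adjusted p = 3.56e-05), and NAP1L5, in the chromosome 4 run, lower at 19.9 ± 2.12 and 10.96 ± 0.344 CPM (adjusted p = 1.84e-05). In all, 3 of 21 were higher (5 without replicate 1 of clone 13) and 3 lower, 28.6% of the list and again near the share of all genes. Of 31 HOX genes 5 were higher (2 without replicate 3 of clone 3) and none lower (2 without replicate 2 of clone 13), 16.1% of the list. Of 238 zinc finger genes of chromosome 19, 28 were higher and 13 lower, 17.2% of the list. Outside the chromosome 19 run the counts were 8 higher and 13 lower of 197. ZNF558 inside the run had 5.78, 9.15 and 8.51 CPM in clone 3 and 20.4, 23.4 and 20.2 in clone 13 (log2 1.45). Without replicate 3 of clone 3, the chromosome 19 counts were 17 higher and 6 lower, and without replicate 1 of clone 3 they were 21 and 6.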

How the data were processed

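The authors deposited unnormalised whole-number counts of reads for 28278 gene symbols, 1 file per library, made with STAR and featureCounts on hg19, per the submitters' processing notes; versions, annotation, strand setting and treatment of multi-mapping reads are not stated in the labels or headers. The notes also name DESeq2. Everything after the counts was computed here.

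Counts of the 10 SKMEL28 libraries were fitted together with edgeR 4.0.16 in R 4.3.3 (filterByExpr by group, 14605 genes kept, TMM factors, robust quasi-likelihood F-test), and clone 13 was contrasted with clone 3. All p-values were adjusted by Benjamini-Hochberg over the genes tested, with calls made below 0.05. SE is the log2 difference divided by the square root of F. Values per library of a list or run are medians of log2 CPM ratios with 0.5 CPM added. The fit was tested on simulated data. The labels do not say that equal replicate numbers share a day or batch, so the main fit used no block. Replicate numbers were checked as pairs: deviations of same-numbered libraries of both clones correlated at 0.048, 0.099 and 0.021, none above 0.1. Pairs with different numbers correlated at -0.069 to 0.027. Whether same-numbered libraries shared a batch was not tested.

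Genes named are the MiT/TFE family, the 15 largest called differences in each direction with at least 5 CPM in the higher clone and no overlap, up to 4 called members per list by the same CPM minimum and size of difference, the ends and 3 most abundant called genes of each run, and lineage markers; other symbols are given as list membership or as neighbours and were chosen after their values were seen. The comparison, members and gene lists were chosen with earlier results of these data known. Gene order came from a RefSeq table of GRCh38.p14, which held 27622 of the 28278 symbols as a symbol or a synonym; since its build is not that of the files, it was used for names and order, and the only coordinates given are those of the promoter windows in their own build. Alternatives were other normalisations, filters, fits and sets of libraries, DESeq2 1.42.0, glmTreat, and other windows for runs. The A375 libraries were left out as another line. Totals of 17320855 to 23048354 counts per library limit precision for genes of a few counts. Some genes are not reported here.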

Additional observations from a re-analysis of the deposited data

How the results depend on the processing

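The count of called genes stayed within 1.5 times the reported 4036 under all alternatives except a test against a minimum fold. The range was 3338 with the 6 libraries of the clones alone to 4410 with the replicate block (4052 for the same 9 libraries without a replicate block, chosen after seeing the data, as was the count outside the runs), and 2983 to 3946 when 1 library was left out. Tested against a fold change of 1.2 with glmTreat, 1308 genes were called, 717 higher and 591 lower in clone 13, by construction of that test. TFE3 was called in every fit, with log2 differences of 2.20 to 2.46 when 1 library was left out. MITF passed the threshold with the replicate block (0.16, adjusted p = 0.0224), with no filter on low counts (0.16, 0.0253) and in DESeq2 (0.17, 0.0388), and ranged from 0.10 to 0.20 (adjusted p from 0.0329 to 0.208) when 1 library was left out; the cause was not tested. Medians of the runs moved by more than the spread between libraries in some settings, always with the same sign. Chromosome 4 had -0.43 among genes with at least 5 CPM, -0.46 without replicate 2 of both clones and -0.48 to -0.44 when 1 library was left out. Chromosome 2 had -0.33 with 6 libraries, -0.35 with the replicate block and -0.35 for the same libraries without it, -0.34 without replicate 2 of both clones and -0.42 to -0.33 when 1 library was left out. Chromosome 18 had 0.36 with 6 libraries and 0.37 to 0.43 when 1 library was left out. Of 194 called genes named here or listed by the naming rule, 166 were called under every alternative that tested them, 28 lost their call under at least 1, and none changed direction. Same-numbered libraries did not all correlate best with each other (replicate 3 of clone 13 correlated at 0.022 with replicate 1 and 0.021 with replicate 3 of clone 3). The block changed 4 of the calls of named genes, 3 gained and 1 lost. Genes of a few counts per library, such as TFEC, were left out by the filter on low counts and entered only the fits without that filter and DESeq2.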

Other observations

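Further gene families gave these values, to be read beside the 27.6% of all genes tested that were called. Of 23 tested vesicle fusion and secretion genes 3 were higher and 4 lower in clone 13, and VAMP2, a neuronal paralogue of VAMP5 and VAMP8, was higher at 41.8 ± 4.26 CPM in clone 3 and 64.1 ± 4.73 in clone 13 (adjusted p = 1.04e-05). Of 17 tested actin contractile genes 3 were higher and 5 lower: TAGLN2 was at 295 ± 10.8 and 486 ± 66.3 CPM, TPM1 at 50.995 ± 5.16 and 31.04 ± 5.37 and the small GTPase gene RHOB at 246 ± 11.4 and 127 ± 5.599 (adjusted p = 1.47e-06, 3.89e-05 and 8.5e-11). Of 5 tested MHC class II genes 2 were higher (1 without replicate 1 of clone 3) and 1 lower, with the transactivator gene CIITA at 25.3 ± 0.603 and 32.9 ± 3.604 CPM and the invariant chain gene CD74 at 145 ± 4.83 and 122 ± 4.51 CPM (adjusted p = 0.00594 and 0.00323). Of 34 clustered protocadherins 4 were higher and 2 lower (1 lower in 4 of the 6 fits that left out a library), and PCDHB2 was at 1.85, 3.99 and 2.41 CPM in clone 3 and 10.7, 10.1 and 5.32 in clone 13 (adjusted p = 0.000325); these genes share sequence, so their counts are uncertain. Of 16 tested cancer-testis antigens 2 were lower (1 without replicate 2 of clone 13 or replicate 1 or 2 of clone 3, and 1 higher without replicate 2 of clone 3), with MAGEA4 at 329 ± 3.53 and 287 ± 1.32 CPM (adjusted p = 0.00529). Of 267 tested zinc finger genes outside chromosome 19, 17 were higher and 27 lower; 11 and 20 were so without replicate 3 of clone 3.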
